A study of Mus musculus with 9 samples.

Results

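A set of 10 genes of mitochondrial fatty acid import and beta-oxidation (Cpt1a, Slc25a20, Cpt2, Acadvl, Acadl, Acadm, Hadha, Hadhb, Acaa2 and Ech1) was followed in cultured mouse valvular interstitial cells given native or oxidised low-density lipoprotein. They were taken by symbol from a named list, and 10 of 10 were found among the 51810 genes of the deposited table. The list was chosen with earlier results of these data known, so the shares of it that were called are descriptive. All 10 were among the 13495 genes tested, those averaging 1 TPM or more over the 9 libraries (TPM is a share of the library's transcripts, corrected for transcript length and scaled to a fixed total). The cells, the fibroblast-like cells of the valve leaflet, were isolated from C57BL/6J mouse aortic and mitral valve tissue. All groups grew in DMEM with 10% serum, 5 ug/mL insulin and the growth factors EGF (2 ng/mL) and basic FGF (0.5 ng/mL), at 37 C and 5% CO2. For 24 h they received LDL at 50 ug/mL, oxLDL (oxidised LDL) at 50 ug/mL, or the same amount of buffer (Control, called untreated in another label), with 3 samples a group. The labels tie no sample to an animal or culture of its own, so a p-value here reflects the scatter among the sequenced samples alone, and that scatter may be technical.

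Long-chain fatty acids cannot cross the inner mitochondrial membrane as CoA esters. They are handed to carnitine at the outer membrane, carried across, handed back to CoA and then shortened by repeated rounds of dehydrogenation, hydration, a further dehydrogenation and thiolytic cleavage. The enzymes differ in the chain lengths they accept, and some are bound to the inner membrane while others are soluble in the matrix. Many of these genes are known targets of the fatty acid receptors of the PPAR family, best known from liver, heart and muscle.

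With LDL, 4 of the 10 genes rose: Cpt1a, Acaa2, Ech1 and Acadl, by 1.5 to 1.87-fold, against 0.178% of all tested genes that rose. Of these calls that of Cpt1a held in all 9 fits that dropped 1 library, that of Acaa2 in 7, that of Ech1 in 4 and that of Acadl in 0. Acadl was lost also without an oxLDL library, at an unchanged log2 difference. With the library number as a block all 4 passed. None of the 10 passed the test with oxLDL against Control. With oxLDL against LDL, Acaa2 fell, against 0.0667% of all genes. This call held in 1 of the 9 fits that dropped a library, and Acadl and Ech1 fell as well when the library number was a block. The oxLDL mean lay between the Control and LDL means in 9 of 10 genes, Hadha being the exception. The share of all tested genes with such an order was not counted. The 9 include Cpt2, whose means were close, and Acadm, whose mean was lowest with LDL. Hadha, Acadm and Cpt2 had overlapping groups in all 3 comparisons.

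TPM keeps no depth, so the reads behind each value are unknown. Between 20985 and 21433 genes were above 0 in each library. All 12 markers of valve interstitial cells and fibroblasts were above 1 TPM on average, with sums of 19373 to 23619 TPM per library. The 9 cardiomyocyte markers, with sums of 10.3 to 65.4 TPM, included 1 above that level, Tnnt2 at 9.59 to 63.04 TPM. Myh6 was at 0 to 0.78 TPM and Myh7 at 0 to 0.01 TPM. None of the 6 adipocyte markers reached 1 TPM on average, and Cfd was listed at 0 in every library. All 7 endothelial and all 10 macrophage markers did, with sums of 122 to 322 and 114 to 716 TPM. In bulk RNA, more cells of a type and more RNA per cell cannot be told apart.

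Promoter sequences were held for 9 of the 10 genes (RefSeq, GRCm38.p6, from 250 bases before to 50 after the start). The gene without one was Acaa2, which also rose with LDL. Those of Cpt1a (chr19:3323051-3323350, plus strand), Acadl (chr1:66863260-66863559, minus strand) and Ech1 (chr7:28825088-28825387, plus strand) are shown because these genes rose with LDL. That of Hadhb (chr5:30155003-30155302, plus strand) is shown because the RefSeq start of Hadha lies 273 bases away on the other strand and its window shares 228 bases with this one. The gene positions given below are from GENCODE, which places some starts elsewhere. It has Cpt1a from 3322334 and Hadha from 30155162, against RefSeq starts of 3323301 and 30154980. All are printed 5′ to 3′ on the gene's strand, and capitals mark the nuclear receptor core AGGTCA, the box with letters CCAAT, and the GC box with letters GGGCGG, on either strand.
Cpt1a: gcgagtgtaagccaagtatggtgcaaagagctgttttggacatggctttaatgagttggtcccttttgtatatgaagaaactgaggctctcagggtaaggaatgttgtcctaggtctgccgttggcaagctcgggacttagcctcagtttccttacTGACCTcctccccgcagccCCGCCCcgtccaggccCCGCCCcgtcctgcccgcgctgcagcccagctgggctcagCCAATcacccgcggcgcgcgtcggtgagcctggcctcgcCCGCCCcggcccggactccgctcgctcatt
Acadl: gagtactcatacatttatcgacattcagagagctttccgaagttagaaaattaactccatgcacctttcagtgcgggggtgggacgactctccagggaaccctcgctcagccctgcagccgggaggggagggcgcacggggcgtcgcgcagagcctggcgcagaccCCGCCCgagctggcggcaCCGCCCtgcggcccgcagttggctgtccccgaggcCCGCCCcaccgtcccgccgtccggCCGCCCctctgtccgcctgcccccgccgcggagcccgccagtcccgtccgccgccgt
Ech1: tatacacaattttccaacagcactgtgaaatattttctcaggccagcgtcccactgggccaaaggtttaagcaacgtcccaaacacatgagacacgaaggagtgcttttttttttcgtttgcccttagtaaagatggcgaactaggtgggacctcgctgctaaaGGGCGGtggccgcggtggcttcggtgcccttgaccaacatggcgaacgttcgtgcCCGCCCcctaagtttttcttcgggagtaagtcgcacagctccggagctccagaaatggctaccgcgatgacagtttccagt
Hadhb: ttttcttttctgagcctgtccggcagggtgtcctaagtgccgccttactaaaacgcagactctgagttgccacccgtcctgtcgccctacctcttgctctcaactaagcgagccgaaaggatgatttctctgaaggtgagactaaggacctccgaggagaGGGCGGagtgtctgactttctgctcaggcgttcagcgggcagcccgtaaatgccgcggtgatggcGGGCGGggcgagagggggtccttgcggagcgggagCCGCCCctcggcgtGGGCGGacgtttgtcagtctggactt

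The 9 promoters were searched on both strands. The core AGGTCA, bound by PPAR and related receptors, was in those of Acadm, Acadvl and Cpt1a, against 16.3% of all 32851 promoters of the same length. The direct repeat AGGTCANAGGTCA, the full PPAR element, was in 0 of 9 and in 0.0396% of all promoters. The site of estrogen-related receptors, TCAAGGTCA, was in 0 of 9 and in 0.423%. Both of these longer sites contain the core. The GC box GGGCGG was in 7 of 9 (not in Acadm or Acadvl) against 35.7%, CCAAT in Cpt1a only against 37.4%, and TATAAA in 0 of 9 against 13.6%. The GC content of the 9 windows had a median of 58.7%, against 52.7% over all promoters, and the number of CpG pairs a median of 19, against 7. The background was not limited to promoters of genes tested here, and the overlapping windows of Hadha and Hadhb count separately among the 9. Whether these shares differ from those of other expressed genes was not tested. A match is a string in a window, and a missing one says only that these letters are not there.

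Of the 3 carnitine steps, the entry step rose with LDL, and the carrier and the inner transferase did not pass. Cpt1a (Ensembl ENSMUSG00000024900, chr19:3322334-3385733 on GRCm38) encodes the outer-membrane carnitine palmitoyltransferase, the malonyl-CoA-sensitive entry step. It was at 54.16, 49.26 and 50.87 TPM in Control 1 to 3, at 91.23, 99.48 and 98.49 TPM in LDL 1 to 3, and at 68.36, 66.99 and 76.4 TPM in oxLDL 1 to 3. The 3 groups did not overlap: every LDL library was above every oxLDL library, and every oxLDL library above every Control library. With LDL it rose 1.87-fold, a log2 difference of 0.89 (SE 0.0734, 95% interval 0.73 to 1.06, adjusted p = 0.00394). Against Control, oxLDL was 1.37-fold higher in the mean (log2 difference 0.45, interval 0.28 to 0.61), which did not pass over all genes (adjusted p = 0.23). Against LDL, oxLDL stood at a log2 difference of -0.45 (interval -0.61 to -0.28, adjusted p = 0.117). That difference passed only with median-ratio scaling of the libraries (adjusted p = 0.0435).

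Slc25a20, the carnitine-acylcarnitine carrier of the inner membrane, was at 22.81, 24.64 and 20.67 TPM in Control, 31.34, 31.35 and 31.66 TPM in LDL and 26.79, 23.42 and 26.42 TPM in oxLDL. The LDL libraries were close together and above all 6 others, while Control and oxLDL overlapped. The LDL difference from Control of 0.46 (SE 0.0837, interval 0.27 to 0.65) did not pass (adjusted p = 0.0871). Cpt2, the inner-membrane transferase that returns the acyl group to CoA, was at 24.72, 27.44 and 21.41 TPM in Control, 24.21, 28.78 and 24.65 TPM in LDL and 26.21, 26.97 and 21.85 TPM in oxLDL. All 3 groups overlapped, with a difference of 0.077 (interval -0.19 to 0.35) for LDL and 0.028 (interval -0.24 to 0.30) for oxLDL against Control.

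The ratio of Cpt1a to Cpt2 was 2.12 ± 0.297 (SD, n = 3) in Control, 3.74 ± 0.271 in LDL and 2.86 ± 0.552 in oxLDL. LDL (3.46 to 3.996) and oxLDL (2.48 to 3.50) each lay above every Control library (1.80 to 2.38), and overlapped each other. The exact two-sided permutation p was 0.1 for either lipoprotein against Control, the smallest that 3 against 3 can give, and 0.2 between them (0.15, 0.15 and 0.24 adjusted over 6 ratio tests). The permutation did not use the library numbers. Within each number the ratio was lower in oxLDL than in LDL: 2.61 against 3.77, 2.48 against 3.46 and 3.50 against 3.996. This paired difference was not tested.

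**Figure D1:**
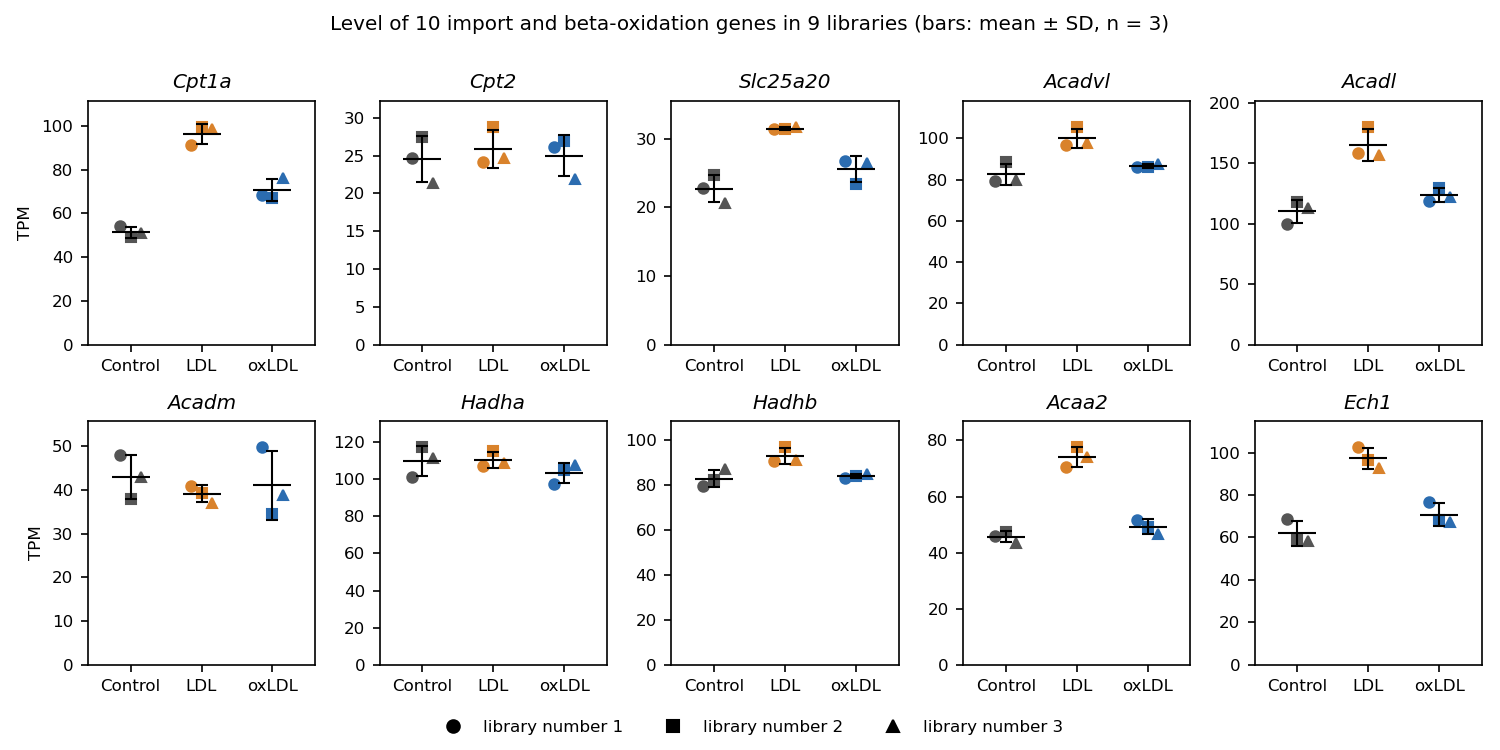
TPM (linear axes from 0) of the 10 genes in the 9 libraries, with bars for the mean and SD of 3 libraries and marker shapes for the library number. Cpt1a at 91.23 to 99.48 TPM with LDL stands clear of Control at 49.26 to 54.16 TPM, with oxLDL at 66.99 to 76.4 TPM between them, while the groups of Cpt2, Acadm and Hadha overlap.

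The acyl-CoA dehydrogenases open each round and differ in the chain length they prefer. Acadl, the long-chain enzyme (ENSMUSG00000026003, chr1:66830839-66863277), was at 99.52, 118.13 and 112.76 TPM in Control, 158.42, 179.83 and 156.78 TPM in LDL and 118.94, 129.73 and 122.47 TPM in oxLDL. The LDL libraries were above all others, and the lowest oxLDL library was just above the highest Control library. It rose 1.5-fold with LDL (log2 difference 0.58, SE 0.0842, interval 0.39 to 0.77, adjusted p = 0.0296). With the library number as a block, it also fell with oxLDL against LDL (log2 difference -0.41, adjusted p = 0.0396, against 0.309 without the block).

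Acadvl, the very-long-chain enzyme of the inner membrane, was at 79.35, 88.38 and 79.75 TPM in Control, 96.71, 105.4 and 97.57 TPM in LDL and 86.1, 86.06 and 87.76 TPM in oxLDL. LDL lay above every other library, with a difference from Control of 0.27 (interval 0.13 to 0.42) that did not pass (adjusted p = 0.227). The exons of Acadvl overlap those of Dvl2, on the opposite strand, by 1151 bases, 42.9% of its exonic length. The library kit does not mark strand, so reads there cannot be assigned to a strand and the level of Acadvl is uncertain. Dvl2, a Wnt signalling adaptor chosen for this overlap, averaged 24.2 ± 0.871 TPM in Control, 20.8 ± 2.77 TPM in LDL and 21.9 ± 0.541 TPM in oxLDL.

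Acadm, the medium-chain enzyme, was at 47.91, 37.86 and 42.85 TPM in Control, 40.91, 39.29 and 37.03 TPM in LDL and 49.72, 34.56 and 38.85 TPM in oxLDL. Its groups overlapped throughout, and its LDL mean was the lowest (difference from Control -0.13, interval -0.43 to 0.18). The ratio of Acadl to Acadm, chosen after the values were seen and not tested, was 2.61 ± 0.522 in Control, 4.23 ± 0.352 in LDL and 3.10 ± 0.682 in oxLDL. Its LDL libraries (3.87 to 4.58) lay above every Control (2.08 to 3.12) and oxLDL (2.39 to 3.75) library.

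Hadha and Hadhb encode the alpha and beta subunits of the trifunctional protein, which carries out the later steps of each round on long chains: the alpha subunit holds the hydratase and dehydrogenase, the beta subunit the thiolase. Their genes lie head to head (chr5:30118304-30155162, minus strand, and chr5:30155248-30184593, plus strand). Hadha was at 101.18, 117 and 111.16 TPM in Control, 107.01, 115.26 and 108.67 TPM in LDL and 97.44, 104.69 and 107.51 TPM in oxLDL. Its groups overlapped, and its difference with LDL was 0.0087 (interval -0.16 to 0.17), an interval that ends below the fitted difference of each of the 4 genes that rose. Hadhb was at 79.4, 82.31 and 87.13 TPM in Control, 90.78, 96.81 and 91.28 TPM in LDL and 83, 84.05 and 84.79 TPM in oxLDL. Its LDL libraries lay above all others, but the difference from Control of 0.16 (interval 0.03 to 0.30) did not pass (adjusted p = 0.577).

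The ratio of Hadha to Hadhb, in TPM, was 1.32 ± 0.0845 in Control, 1.19 ± 0.00679 in LDL and 1.23 ± 0.0491 in oxLDL. Every LDL library (1.18 to 1.19) and every oxLDL library (1.17 to 1.27) was below every Control library (1.27 to 1.42), by little for oxLDL 3 (1.268 against 1.274). The exact two-sided permutation p was 0.1 for either lipoprotein against Control and 0.4 between them (0.15, 0.15 and 0.4 adjusted over the 6 ratio tests).

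**Figure D2:**
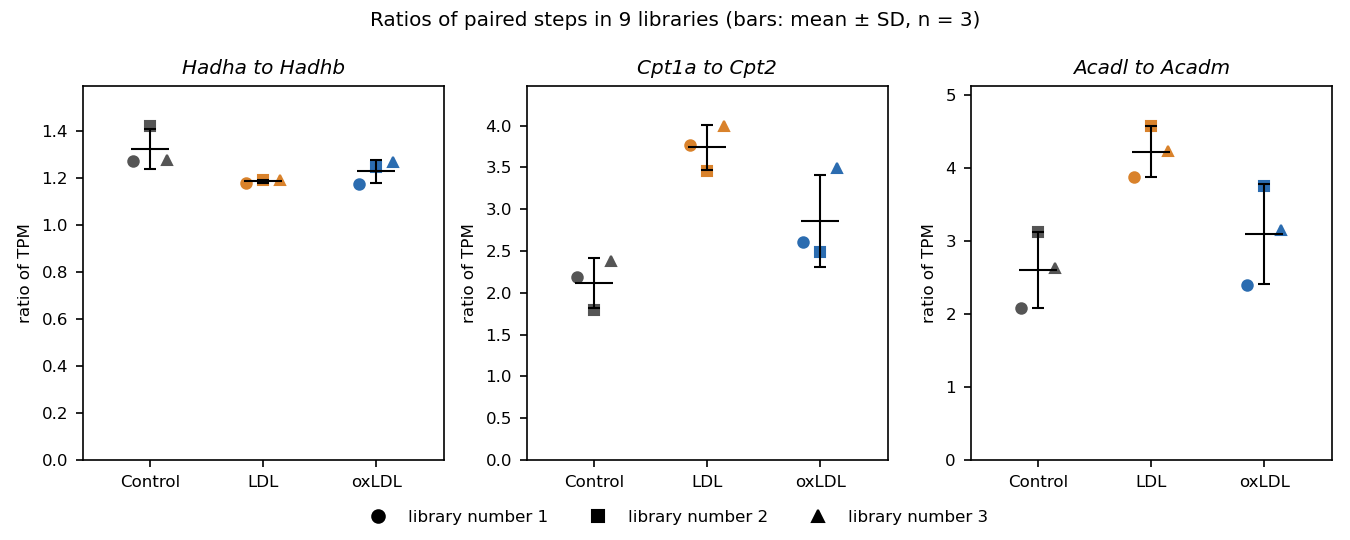
Ratios of TPM per library for Hadha to Hadhb, Cpt1a to Cpt2 and Acadl to Acadm, on linear axes from 0 with bars for the mean and SD of 3 libraries. The mean ratio of Cpt1a to Cpt2 goes from 2.12 in Control to 3.74 in LDL, and that of the subunits Hadha to Hadhb from 1.32 to 1.19.

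Acaa2, the matrix thiolase that ends each round on shorter chains, was at 46.08, 47.43 and 43.45 TPM in Control, 70.62, 77.52 and 73.95 TPM in LDL and 51.78, 49.28 and 46.48 TPM in oxLDL. LDL was well above both other groups, which overlapped. Acaa2 rose 1.62-fold with LDL (log2 difference 0.69, SE 0.0688, interval 0.53 to 0.84, adjusted p = 0.0103). With oxLDL it fell by 33.6% from the LDL level (log2 difference -0.58, interval -0.74 to -0.42, adjusted p = 0.0254), and it differed from Control by 0.10 (interval -0.05 to 0.26).

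Ech1, a dienoyl-CoA isomerase that prepares unsaturated chains for the main pathway (ENSMUSG00000053898, chr7:28825217-28832247), was at 68.7, 58.66 and 58.44 TPM in Control, 102.43, 96.68 and 92.65 TPM in LDL and 76.86, 68.33 and 67.17 TPM in oxLDL. LDL was above all 6 others, and Control 1 lay within the oxLDL range. Within library numbers 1 to 3, oxLDL was above Control by log2 differences of 0.16, 0.22 and 0.20. Ech1 rose 1.57-fold with LDL (log2 difference 0.65, SE 0.0862, interval 0.45 to 0.84, adjusted p = 0.0238). Against LDL, oxLDL was at -0.45 (adjusted p = 0.215), which passed with the block (adjusted p = 0.0203).

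Read as a group against Control, the 4 genes that rose with LDL compare with 0.178% of all tested genes that rose (24 genes, with 21 that fell), and 0 of the 10 fell. The block gave the same number of member calls, 4, against 0.437% of all genes. In limma with the block the adjusted p was 0.00228 for Cpt1a, 0.00416 for Acaa2, 0.00193 for Ech1 and 0.00449 for Acadl. At an unadjusted p under 0.05, 7 of 10 were higher (3.62% of all genes), and in 7 of 10 every LDL library lay above every Control library (5.61%). The median log2 difference of the 10 was 0.37, against -0.0018 over all genes tested. Their summed level was 623.83, 651.11 and 628.49 TPM in Control, 813.66, 870.4 and 812.73 TPM in LDL and 685.2, 674.08 and 679.7 TPM in oxLDL. LDL was thus 1.31-fold and oxLDL 1.07-fold the Control mean of 634 ± 14.6 TPM.

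These calls differed in how many of the alternative fits they passed. Cpt1a passed whichever of the 9 libraries was dropped (adjusted p at most 0.0353). Acaa2 did not pass without LDL 2 (adjusted p = 0.0587) or LDL 3 (0.0579). Ech1 did not pass without Control 2 (0.103), Control 3 (0.0753), LDL 1 (0.0734), LDL 2 (0.108) or LDL 3 (0.0951), nor with median-ratio scaling (0.0546), quantile normalization (0.0586), no filter (0.0571) or only the 6 libraries compared (0.0786). Acadl did not pass in any of the 9 fits (0.0549 to 0.13), nor with a constant prior (0.062), no filter (0.0773) or only 6 libraries (0.13), although its log2 difference stayed at 0.51 to 0.63 in them. The oxLDL libraries are not in this comparison and only add to the estimate of the spread. Without oxLDL 1, oxLDL 2 or oxLDL 3 the log2 difference of Acadl was unchanged at 0.58 (adjusted p = 0.0569, 0.0549 and 0.0629 in limma). A lost call is thus not by itself a sign that the difference rests on the library dropped. In the macrophage list, all 10 markers had a positive log2 difference for LDL against Control and a negative one for oxLDL against LDL, and limma called 0 of them (0 with the block, and 0 had an unadjusted p under 0.05). Their sums overlapped, at 253 to 480 TPM in Control, 246 to 695 TPM in LDL and 114 to 716 TPM in oxLDL. LDL 2, with the lowest macrophage sum of its group (246 TPM), had the highest sum of the 10 oxidation genes (870.4 TPM), while oxLDL 2, with the lowest macrophage sum of its group (114 TPM), had the lowest sum of the 10 genes (674.08 TPM). The 3 tested melanocyte markers of 5 had a median log2 difference of 0.30 between LDL and Control, and of -0.34 between oxLDL and LDL, with 0 called in limma (0 with the block, and 0 at an unadjusted p under 0.05). Their list summed to 3.81 to 12.1 TPM in Control, 5.38 to 19.15 TPM in LDL and 2.74 to 14.7 TPM in oxLDL. The part of either cell type in the results was not tested.

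With oxLDL against Control, limma called 0 of the 10 genes, against 0.0148% of all genes higher (2 genes), and with the block also 0, against 0.0593%. At an unadjusted p under 0.05, 1 gene (Cpt1a) was higher, against 1.79% of all genes. In Cpt1a and Acadl all oxLDL libraries lay above all Control libraries, against 3.50% of all genes. The 9 genes other than Cpt1a differed by -0.087 (Hadha) to 0.19 (Ech1, interval -0.0038 to 0.39). Without the block each had an adjusted p of 1. The median log2 difference of the 10 was 0.088, against -0.0028 over all genes.

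With oxLDL against LDL, 1 of the 10 fell (Acaa2), against 0.0667% of all genes (9 genes, with 5 that rose). With the block 3 fell (Acaa2, Ech1 and Acadl), against 0.141%. At an unadjusted p under 0.05, 7 were lower, against 2.31%, and in 7 every oxLDL library lay below every LDL library, against 4.20%. The median was -0.25, against 0.00087 over all genes. Acaa2 passed in only 1 of the 9 fits that left out a library, that without Control 3 (adjusted p = 0.04). In the other fits its adjusted p was 0.0512 (without LDL 1), 0.0526 (without Control 2), 0.0673 (without Control 1), 0.0801 (without oxLDL 1), 0.0906 (without oxLDL 3), 0.159 (without oxLDL 2), 0.175 (without LDL 2) and 0.185 (without LDL 3). Both lipoproteins were compared with the same Control libraries, and the LDL libraries serve in the comparison with Control and in that with oxLDL.

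**Figure D3:**
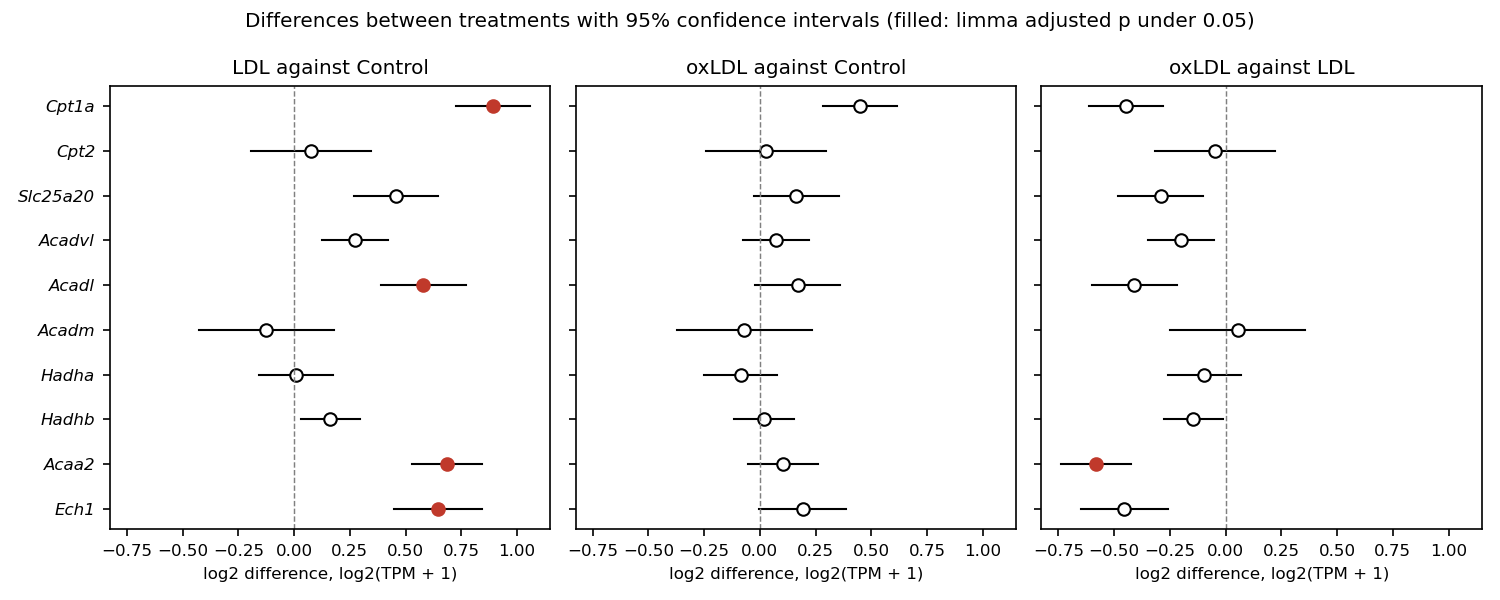
Log2 differences of the 10 genes on the log2(TPM + 1) scale with 95% intervals, for each of the 3 comparisons, with filled red points for genes that passed limma's test. LDL against Control runs from -0.13 for Acadm to 0.89 for Cpt1a, and oxLDL against LDL reaches -0.58 at Acaa2.

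On the TPM scale, which is corrected for length, the order of levels in Control was Acadl (110 ± 9.58 TPM) and Hadha (109.8 ± 8.0 TPM), whose libraries overlapped, then Hadhb and Acadvl (82.9 ± 3.90 and 82.5 ± 5.10 TPM), which also overlapped. Ech1 (61.9 ± 5.86 TPM) and Cpt1a (51.4 ± 2.5 TPM) followed, each apart from its neighbours. Acaa2 and Acadm (45.7 ± 2.02 and 42.9 ± 5.03 TPM) overlapped, as did Cpt2 and Slc25a20 (24.5 ± 3.02 and 22.7 ± 1.99 TPM) at the bottom. In LDL, Acadl (165 ± 12.9 TPM) stood apart above Hadha (110.3 ± 4.36 TPM). Below them Acadvl, Ech1, Cpt1a and Hadhb (99.9 to 93.0 TPM) formed a run in which each overlapped the next. Cpt1a was thus beside Hadhb in LDL but below it by more than the spread in Control. Slc25a20 (31.5 ± 0.182 TPM) was above Cpt2 (25.9 ± 2.52 TPM) in LDL without overlap, whereas in oxLDL (25.5 ± 1.85 and 25.0 ± 2.76 TPM) they overlapped. The mean over the 9 libraries of Acadl was above that of 91.0% of tested genes, and that of Cpt2 above 57.9%.

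The related genes were read in the same way. Of 16 other genes of mitochondrial beta-oxidation, limma called 0 with LDL against Control (2 higher and 1 lower at an unadjusted p under 0.05, 0 with the block), and their median was -0.056. Of all tested genes, 3.62% were higher at an unadjusted p under 0.05, and the share lower was not counted. Every LDL library lay above every Control library in 3 of the 16 (5.61% of all genes), and below in 1. The share of all genes with LDL below was not counted. The list also holds enzymes outside fatty acid oxidation, such as Ivd, so its median is not that of fatty acid enzymes alone. Echs1, the short-chain enoyl-CoA hydratase, averaged 76.4 ± 9.27 TPM in Control and 59.8 ± 5.52 TPM in LDL without overlap (log2 difference -0.35, adjusted p = 0.349). Ivd, of leucine breakdown, was at 34.5 ± 4.37 and 27.7 ± 5.09 TPM with overlap (-0.32, adjusted p = 0.848). In the other direction Eci2, an isomerase for unsaturated chains chosen here after its values were seen, averaged 91.9 ± 3.69 TPM in Control and 114 ± 6.0 TPM in LDL without overlap (0.31, adjusted p = 0.276). The 3 genes that pass electrons from the dehydrogenases to the respiratory chain had a median of 0.16, with 0 called (1 higher at an unadjusted p under 0.05, 0 with the block). Of these, Etfdh averaged 34.0 ± 1.46 TPM in Control and 41.2 ± 1.84 TPM in LDL without overlap (0.27, adjusted p = 0.231).

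Of 9 other carnitine genes 7 were tested (Cpt1b and Bbox1 were too low), with a median of 0.074 and 0 called (0 with the block). At an unadjusted p under 0.05, 3 of them were higher, against 3.62% of all genes. Aldh9a1, of carnitine synthesis, differed by 0.32 (22.3 ± 1.58 to 28.0 ± 1.57 TPM, adjusted p = 0.231), and the peroxisomal transferase Crot by 0.26 (24.6 ± 0.847 to 29.6 ± 1.48 TPM, adjusted p = 0.33). Of the 8 genes that set malonyl-CoA, the inhibitor of Cpt1a, 0 were called (0 at an unadjusted p under 0.05, 0 with the block), with a median of -0.064. The carboxylases Acaca and Acacb differed by -0.14 and -0.073, and the decarboxylase Mlycd by -0.071.

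Of 13 nuclear receptors and coactivators 10 were tested, with a median of 0.091 and 0 called (0 at an unadjusted p under 0.05, 0 with the block). Ppara (0.2 to 0.89 TPM), Ppargc1a (0.1 to 0.41 TPM) and Ppargc1b were below the filter. Ppard averaged 24.7 ± 1.32 TPM in Control, 28.3 ± 2.41 TPM in LDL and 28.9 ± 1.72 TPM in oxLDL (0.19 with LDL, adjusted p = 0.764). Pparg was low and scattered, at 1.91 ± 0.981, 3.16 ± 1.29 and 1.58 ± 0.332 TPM (0.53 with LDL, adjusted p = 0.875).

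Other targets of the PPAR receptors rose with LDL in 5 of 13 tested genes of 16 listed, against 0.178% of all genes, with 0 that fell and a median of 0.39. This list too was chosen with earlier results of these data known. Pdk4, the kinase that shuts off pyruvate dehydrogenase, rose from 8.72 ± 1.0 TPM in Control to 27.6 ± 1.53 TPM in LDL (log2 difference 1.56, adjusted p = 0.00394) and was at 10.4 ± 1.57 TPM in oxLDL. Angptl4, a secreted inhibitor of lipoprotein lipase, rose by 2.19 (adjusted p = 0.0245), and Ucp2, a carrier of the inner membrane, by 1.3 (adjusted p = 0.0265). Plin2, which coats lipid droplets, rose by 0.93 (adjusted p = 0.0156). With oxLDL against LDL, 2 of the 13 fell, against 0.0667% of all genes, among them Pdk4 (-1.34, adjusted p = 0.00595), with a median of -0.43, and with the block 3 fell.

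In the other lists described here 0 genes were called in limma, with or without the block, for LDL against Control. The 9 tested of 11 peroxisomal beta-oxidation genes had a median of 0.069 (1 higher at an unadjusted p under 0.05, against 3.62% of all genes). The 17 citric acid cycle genes had a median of 0.0030 (0 at an unadjusted p under 0.05), and the 16 genes of mitochondrial mass and protein import had 0.0042 (1 higher). The share of TPM from the mitochondrial genome was 1.71 to 3.25% across the libraries. With oxLDL against Control, 0 genes were called in each of these 9 lists, with or without the block. There 2 PPAR targets, among them Angptl4 (log2 difference 1.28, adjusted p = 0.642), and 1 receptor gene (Ppard) were higher and 1 other beta-oxidation gene lower at an unadjusted p under 0.05. Of all genes, 1.79% were higher at that threshold, and the share lower was not counted. The beta-oxidation gene was Nudt7, a CoA hydrolase known from peroxisomes, although it stands in the list named for mitochondria.

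With oxLDL against LDL, limma called 0 genes in the 8 lists described here other than that of PPAR targets, with or without the block. At an unadjusted p under 0.05, 2.31% of all tested genes were lower. Of the 16 other beta-oxidation genes 3 were lower, among them Eci2 (log2 difference -0.29, adjusted p = 0.645) and Decr1 (-0.22, adjusted p = 0.823), auxiliary enzymes for unsaturated chains. So were 3 of the 7 carnitine genes, among them the carnitine importer Slc22a5 (-0.36, adjusted p = 0.675) and Crot (-0.27, adjusted p = 0.566). The same held for 1 of the 3 electron transfer genes (Etfdh, -0.16, adjusted p = 1) and 1 of the 10 receptor genes (Pparg, -0.65, adjusted p = 1), and for 0 genes of the other 4 lists.

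**Figure D4:**
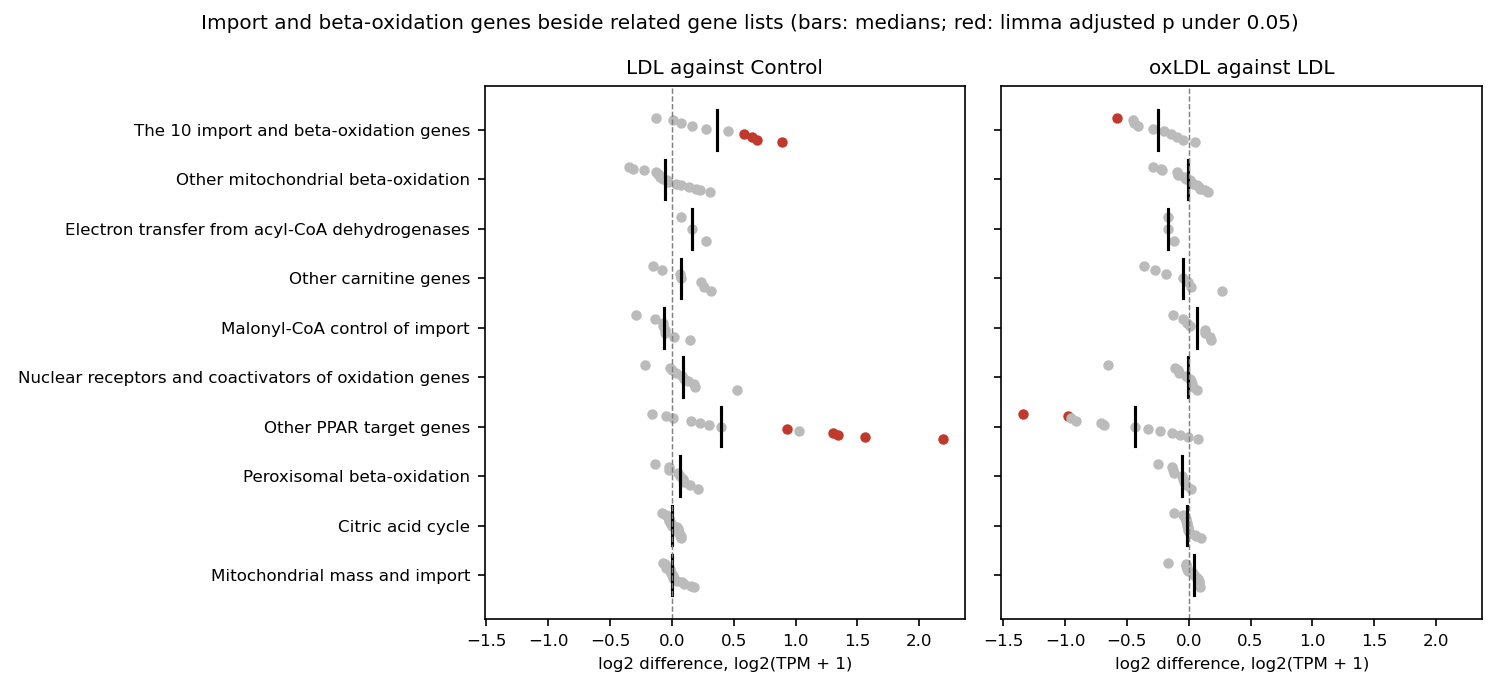
Log2 differences on the log2(TPM + 1) scale for the 10 genes and 9 related lists, with bars at the list medians and red points for genes that passed limma's test. The medians of 0.37 for the 10 genes and 0.39 for the other PPAR targets with LDL lie right of the others, and with oxLDL against LDL they are at -0.25 and -0.43.

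The profiles of the 10 genes over the libraries were set against their mean. Each gene's log2(TPM + 1) values were scaled to mean 0 and SD 1 over the 9 libraries, and distance was taken as the root mean square difference, in SD units, from the mean profile of the 10, to which each contributes. Acaa2 (0.201), Acadvl (0.212) and Acadl (0.274) were nearest, and Cpt2 (0.991), Hadha (1.10) and Acadm (1.5) farthest. Of 9808 other genes averaging 5 TPM or more, the nearest 5 were Lipe (0.267), Pdk4 (0.322), Tpm1 (0.346), Abhd6 (0.351) and Hk2 (0.357). The libraries behind this measure are the same 9, so it describes likeness in them. The mean profile was highest in the LDL libraries, so genes picked for nearness to it were bound to be higher there. The limma values of these genes with LDL describe them and are no separate test. Lipe, hormone-sensitive lipase, was at 6.04, 8.13 and 4.99 TPM in Control, 14.25, 14.77 and 13.64 TPM in LDL and 8.1, 7.71 and 8.23 TPM in oxLDL, and rose with LDL (log2 difference 1.06, adjusted p = 0.0237). The others outside the PPAR list did not pass with LDL against Control: Hk2, a hexokinase, differed by 0.501 (adjusted p = 0.0976), Abhd6, a monoacylglycerol lipase, by 0.24 (adjusted p = 0.474) and Tpm1, a tropomyosin, by 0.19 (adjusted p = 0.393).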

How the data were processed

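RNA was sequenced in 9 libraries from 50 ng of total RNA each, as amplified cDNA in libraries without strand information, with reads in pairs of 100 bases, per the labels' protocols. The authors deposited TPM values, made with STAR (no version named), RSEM 1.3.1 and build mm10 per the submitters' processing notes. The gene annotation was not given in the sources used.

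The members and gene lists were chosen with earlier results of these data known. Values were taken as log2(TPM + 1) for genes averaging 1 TPM or more, leaving out 38315. Under R 4.3.3, the linear models of limma 3.58.1 (empirical Bayes, mean-dependent prior) were fitted to all 9 libraries (6 residual degrees of freedom), two-sided, with Benjamini-Hochberg adjustment over all 13495 genes and an adjusted p under 0.05 as threshold. Adjusted p-values of genes are all from limma, and fold changes are ratios of mean TPM. log2 differences are on the log2(TPM + 1) scale, which understates the change of low genes. The code was tested on simulated data. Ratios of 2 genes were compared by exact permutation, without regard to the library number.

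All 10 members were named, with at most 4 called genes a list (where none was called, at most 2 others), 8 genes whatever their result (among them Pdk4, Ppard, Pparg and Acaca) and the 5 genes of most like profile. Plin2, Dvl2 and markers named outside this rule were chosen after values were seen. Some genes that the rule selects, and 1 further list, which held called genes with LDL against Control and with oxLDL against LDL, are not reported here. Positions are from GENCODE M21 (GRCm38).

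Replicate numbers are those in the sample titles. After subtracting group means, same-numbered libraries (9 pairs) had correlations of 0.172 to 0.497, and the 18 other pairs -0.309 to 0.13, so the numbers pair the samples. A fit blocked on number left 4 degrees of freedom. It is given where it changes a call, in counts of called genes and for the members that rose with LDL. The fits that left out a library did not use the block. The alternatives were pseudocounts of 0.1 and 5, no filter or a filter of 5 TPM, 2 other scalings, a constant prior, only the 6 libraries compared, the block, and leaving out each library in turn.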

Additional observations from a re-analysis of the deposited data

How the results depend on the processing

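Each group had 3 libraries, the depth is unknown, and several adjusted p-values lay close to the threshold. The numbers of genes called over the whole table moved with the fit. For LDL against Control, 45 genes passed, against 19 with no filter on low values, 9 with only the 6 libraries compared, 115 with the replicate block, and 4 to 37 when a library was left out. The split of 24 higher and 21 lower became 23 and 12 with median-ratio scaling and 22 and 12 with quantile normalization. For oxLDL against Control, 2 genes passed, against 10 with no filter, 1 with a pseudocount of 5, with only 6 libraries or with a constant prior, 17 with the replicate block, and 1 to 3 when a library was left out. For oxLDL against LDL, 14 passed, against 8 with no filter, 6 with only 6 libraries, 8 with a constant prior, 35 with the replicate block, and 1 to 10 when a library was left out.

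Of the 10 oxidation genes, the 4 that passed with LDL against Control became 2 with no filter and 2 with only 6 libraries (Cpt1a and Acaa2 both times), and 1 to 3 when a library was left out (Cpt1a alone without LDL 2 or LDL 3). It was 3 with median-ratio scaling and quantile normalization (Ech1 lost) and with a constant prior (Acadl lost). The 1 that passed with oxLDL against LDL became 2 with median-ratio scaling, 0 with quantile normalization, 0 with only 6 libraries, 0 with a constant prior, 3 with the replicate block, and 0 to 1 when a library was left out. For oxLDL against Control the number was 0 under every alternative. The replicate block changed no other call of the 10. With fewer samples the fits had fewer residual degrees of freedom, and for the other alternatives the cause was not tested.

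The sign turned when a library was left out in genes that never passed: with LDL against Control in Hadha (-0.048 to 0.056) and Cpt2 (-0.013 to 0.16), with oxLDL against Control in Acadm (-0.21 to 0.042), Hadhb (-0.013 to 0.054) and Cpt2 (-0.062 to 0.12), and with oxLDL against LDL in Cpt2 (-0.10 to 0.042) and Acadm (-0.089 to 0.17). The median over the 10 genes ranged over all alternatives from 0.32 to 0.42 for LDL against Control, 0.062 to 0.13 for oxLDL against Control and -0.26 to -0.22 for oxLDL against LDL.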
